A study of Homo sapiens with 12 samples.

Results

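The tubulins outside the beta family were examined in a pair of prostate cancer cell lines and in the docetaxel-resistant lines derived from them. The members were the genes TUBA1A, TUBA1B, TUBA1C and TUBA4A (alpha-tubulins), TUBG1 and TUBG2 (gamma-tubulins), TUBD1 (delta-tubulin) and TUBE1 (epsilon-tubulin), found by gene symbol in the annotation of the arrays. They were 8 of the 19775 genes named on the larger of the array types used. On the smaller type 7 of them were present among 11963 genes, with 13 probe sets, and TUBE1 was read on the larger type only. The larger type held 17 member probe sets, of which 4 were additional: 1 each for TUBA1B and TUBD1 and both of those for TUBE1.

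RNA had been taken from DU145 and 22Rv1, human prostate cancer lines grown in serum-supplemented medium without docetaxel, and from DU145-DR and 22Rv1-DR, the docetaxel-resistant lines grown with the drug. Each of the 4 groups had 3 samples: replicates 1 and 2 on the smaller Affymetrix array type (8 arrays, 22215 probe sets) and replicate 3 on the larger (4 arrays, 54613 probe sets). Each parental line had 1 resistant counterpart, and every resistant sample came from cells under docetaxel, so selection and exposure to the drug cannot be told apart. Separate cultures for the replicates are not stated in the sources used here, so the p-values below measure the spread between these samples, which may be technical.

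Microtubules are built from dimers of alpha- and beta-tubulin, and docetaxel is a taxane, a drug that binds the beta subunit inside the polymer and stabilises it. Gamma-tubulin does not enter the microtubule wall: it sits in a ring-shaped complex that starts new microtubules at the centrosome and in the spindle. Delta- and epsilon-tubulin are needed for the triplet microtubules of centrioles, the barrels at the core of the centrosome. Cells also adjust tubulin mRNA to the amount of free tubulin dimer, by degrading tubulin mRNAs that are being translated when free dimer is abundant.

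Levels are intensities of probe sets on a linear scale, as deposited. Changes are resistant minus parental on the scale of log2 of the intensity plus 16, given with limma's standard error (SE) over the 8 arrays of the smaller type, 2 arrays a group. The threshold for calling a probe set higher or lower was 0.05 for p after Benjamini-Hochberg adjustment across the 14831 probe sets tested. The pair of replicate 3 samples, called the third pair here, gave a difference with no test. The floor of the smaller arrays differed between lines, with a 5th percentile of 35.8 to 38.6 in DU145 and DU145-DR and of 11.5 to 12.3 in 22Rv1 and 22Rv1-DR, so levels were compared within a line unless stated. A probe set name ending in _x_at marks probes that may also bind other sequences. This held for all 5 TUBA1B and both TUBA1C probe sets of the smaller type and for 1 of TUBD1. TUBA1A was read by 1 probe set on each array type, with a name ending in _s_at. Whether the TUBA1A probes also bind other sequences, such as those of TUBA1B and TUBA1C, was not tested. The epithelial markers KRT8, KRT18, EPCAM and CDH1 were all above the limit for dim probe sets in at least 1 group, while in DU145-DR 3 of the 4 were lower than in DU145, with CDH1 between the 0.0045 and 8.65 percentiles of its arrays. CDH1 was lower in 22Rv1-DR too (-3.38, limma adjusted p = 0.00015), at the 70.8 to 74.4 percentiles against 96.7 to 97.0 in 22Rv1, and FOXA1, a prostate lineage marker, was lower in DU145-DR (-2.34, limma adjusted p = 0.000384). The summed epithelial intensity was 16153 to 20187 in DU145, 8382 to 10064 in DU145-DR, 11810.0 to 16754 in 22Rv1 and 8089 to 12980.4 in 22Rv1-DR. KLK3, another such marker, and FOXA1 had a summed intensity of 460.3 to 688 in DU145, 34.7 to 239.8 in DU145-DR, 1112 to 1665 in 22Rv1 and 989 to 1229 in 22Rv1-DR. Fibroblast markers summed to 175 to 663 in DU145, 154 to 661 in DU145-DR, 134 to 236 in 22Rv1 and 163 to 221 in 22Rv1-DR, over 5 probe sets. Leukocyte markers summed to 95.2 to 418, 91.4 to 376, 68.1 to 86.0 and 75.6 to 91.7 in the same order, over 4 probe sets. Endothelial markers summed to 67.6 to 463, 66.3 to 446, 61.0 to 69.6 and 58.1 to 70.8, over 4 probe sets. These summed ranges pool all samples of a group over both array types. In DU145 and DU145-DR the floor was lower on the larger type than on the smaller. The width of the fibroblast, leukocyte and endothelial ranges, and their contrast between lines, therefore cannot be read as expression. Of these markers 4 fibroblast, 1 leukocyte and 2 endothelial ones were tested. None was higher or lower in DU145-DR (0 in each list, background 8.97% in either direction). With so few tested, counts of 0 are near that share and tell little about these cell types. The part of the epithelial and lineage markers in the tubulin results was not tested. In RNA from whole cultures, fewer cells that express a gene and less RNA per cell cannot be told apart.

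TUBA1A, TUBA1B and TUBA1C lie next to each other on chromosome 12 and encode nearly the same protein, so the bases before their starts are shown because only TUBA1A of the 3 genes passed the test in a resistant line. Each line below gives the 150 bases before the annotated start, read 5′ to 3′ on the gene's own strand, from RefSeq on GRCh38.p14. The positions are chr12:49189081-49189230 (minus strand) for TUBA1A, chr12:49131396-49131545 (minus strand) for TUBA1B and chr12:49264932-49265081 (plus strand) for TUBA1C, the last of the 3 windows that RefSeq gives for that gene. Capitals mark, on either strand, the motif CCAAT, the motif TATATA and the motif GGGCGG.
TUBA1A: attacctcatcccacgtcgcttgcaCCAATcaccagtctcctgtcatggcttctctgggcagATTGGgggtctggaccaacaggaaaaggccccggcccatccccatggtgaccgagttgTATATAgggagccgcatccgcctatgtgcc
TUBA1B: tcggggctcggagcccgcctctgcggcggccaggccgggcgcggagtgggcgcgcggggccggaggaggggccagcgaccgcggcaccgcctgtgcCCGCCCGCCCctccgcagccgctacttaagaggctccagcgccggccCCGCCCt
TUBA1C: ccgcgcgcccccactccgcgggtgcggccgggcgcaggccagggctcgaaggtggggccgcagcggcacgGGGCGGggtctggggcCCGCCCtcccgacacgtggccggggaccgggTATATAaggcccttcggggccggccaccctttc

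The TUBA1A stretch held CCAAT on the gene's strand with its first base 125 bases before the start and on the other strand at 88, and TATATA at 30. The TUBA1B stretch held no CCAAT and no TATATA, and GGGCGG on the other strand at 54, 50 and 7 bases before the start, the first pair overlapping. The TUBA1C stretch held TATATA at 33 and GGGCGG at 80 and, on the other strand, at 64. In its full window of 250 bases TUBA1C also held 1 CCAAT, upstream of the printed bases, and both other RefSeq windows of that gene held 1 CCAAT each. Over the 34943 human promoters of the same table, CCAAT was found on either strand in 32% of the 250 bases before the start, TATATA in 3.74% and GGGCGG in 42.5%. The classical TATAAA, found in 10.8% of them, was in none of the members' windows (0). The 250 bases were 56.4% G and C for TUBA1A, 81.2% for TUBA1B and 70.8% for TUBA1C. Of the other members, TUBA4A had 4 GGGCGG, TUBG1 had 1 CCAAT and 1 GGGCGG, TUBG2 had 1 CCAAT, and TUBD1 and TUBE1 had none of the motifs. These matches describe the letters and not binding.

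TUBA1A rose 4.56-fold in DU145-DR and had nearly the same level in 22Rv1 and 22Rv1-DR. Of the 7 member genes tested, it was the one that passed in a resistant line without a block. With the replicate number as a block TUBG1 and TUBG2 passed as well, as given below, and TUBE1 had no test. TUBA1A encodes an alpha-tubulin best known from developing neurons. Its probe set read 1399 and 1820.3 on the 2 smaller DU145 arrays and 6123 and 8780.0 on the DU145-DR arrays. On the larger array type it read 1361 in DU145 and 3743 in DU145-DR. All DU145-DR values lay above all DU145 values on the same array type, and the third pair had the smallest gap. The change was 2.19 ± 0.24 (SE, n = 2 arrays a group; 95% interval 1.64 to 2.73; 3.13-fold to 6.65-fold; limma adjusted p = 0.00122). By replicate number the differences were 2.12, 2.26 and, on the third pair, 1.45. The third-pair difference was at the 96.7 percentile of the shared probe sets tested.

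In the other line TUBA1A read high in parental and resistant cells alike. The intensity was 4269.9 and 4608 in 22Rv1 and 4329.6 and 5008 in 22Rv1-DR on the smaller arrays, and 5330.3 and 5914 on the larger. The change was 0.07 ± 0.24 (SE, n = 2 arrays a group; 95% interval -0.48 to 0.61; limma adjusted p = 1.00), and the third pair gave 0.15. The groups overlapped on the smaller arrays. The change in 22Rv1 was smaller than that in DU145 by a difference of -2.12 ± 0.34 (SE; 95% interval -2.89 to -1.35; limma adjusted p = 0.00882). That call was lost when replicate 1 of 22Rv1-DR was left out (-2.01, adjusted p = 0.0516), while the rise in DU145-DR passed in all 19 alternatives (1.93 to 2.45).

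Between the parental lines TUBA1A was higher in 22Rv1 than in DU145 by 1.47 ± 0.24 (limma adjusted p = 0.000542). Because of the offset between the lines' arrays this comparison was also made after quantile normalization (2.54, adjusted p = 2.48e-05) and after a shift of the arrays to 1 median (2.90, adjusted p = 5.94e-05). The call held under each, which was so for no other member. The 5 TUBA1B probe sets did not pass on the deposited scale (-0.06 to 0.045) but passed as higher in 22Rv1 after quantile normalization (0.47 to 0.62) and after the shift (1.38 to 1.48). A probe set each of TUBA1C, TUBA4A, TUBG1, TUBG2 and TUBD1 passed as lower in 22Rv1 on the deposited scale (-0.57, -0.93, -0.82, -1.39 and -1.47), and none of these passed as lower under either scaling. As deposited, 83.6% of all probe sets tested differed between the parental lines, 3.36% (498) higher and 80.2% (11897) lower in 22Rv1; after quantile normalization the split was 3155 higher and 3152 lower. On the larger arrays TUBA1A was 3.88-fold higher in 22Rv1 than in DU145 and 1.58-fold higher in 22Rv1-DR than in DU145-DR. In its own array TUBA1A stood at the 85.1, 85.7 and 90.3 percentiles in DU145 and at 97.4, 97.7 and 96.7 in DU145-DR. In 22Rv1 it stood at 97.9, 98.1 and 97.8, and in 22Rv1-DR at 97.9, 98.3 and 98.0, so DU145-DR reached nearly the rank that both 22Rv1 lines had.

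Counted over the family, 1 of the 13 member probe sets was higher in DU145-DR and 0 were lower, where 8.97% of all probe sets tested were called in that comparison (4.5% higher, 4.46% lower). On the third pair of DU145, TUBA1A alone of the 13 differed by over 2-fold, where 17.7% of all were. The 12 others did not pass, and the median change of the 13 was 0.16 against -0.01 over all probe sets tested. At an unadjusted p under 0.05 there were 3 of the 13, against 22.2% of all. In 22Rv1-DR 0 of 13 passed by limma, where 4.16% of all were called (2.2% higher, 1.96% lower). At an unadjusted p under 0.05 there were 0 of the 13, against 14.7% of all. On the third pair of that line 0 of 13 differed by over 2-fold, where 6.14% of all did. Their median change there was -0.07 against 0.01 over all. The difference between the lines' changes passed for TUBA1A alone among the 13 (background 6.54%, of which 3.61% higher and 2.93% lower in the 22Rv1 change). With the replicate number as a block, 3 of 13 passed in DU145 (TUBA1A, TUBG1 and TUBG2; background 33.2%), 1 in 22Rv1 (TUBG2; background 19.8%) and 2 in the difference (TUBA1A and TUBG2; background 29%). The groups did not overlap for 4 of 13 in DU145 (TUBA1A, TUBA4A, TUBG1 and TUBG2; background 40.8%) and for 5 of 13 in 22Rv1 (3 of TUBA1B, TUBG1 and TUBG2; background 49.7%).

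**Figure D1:**
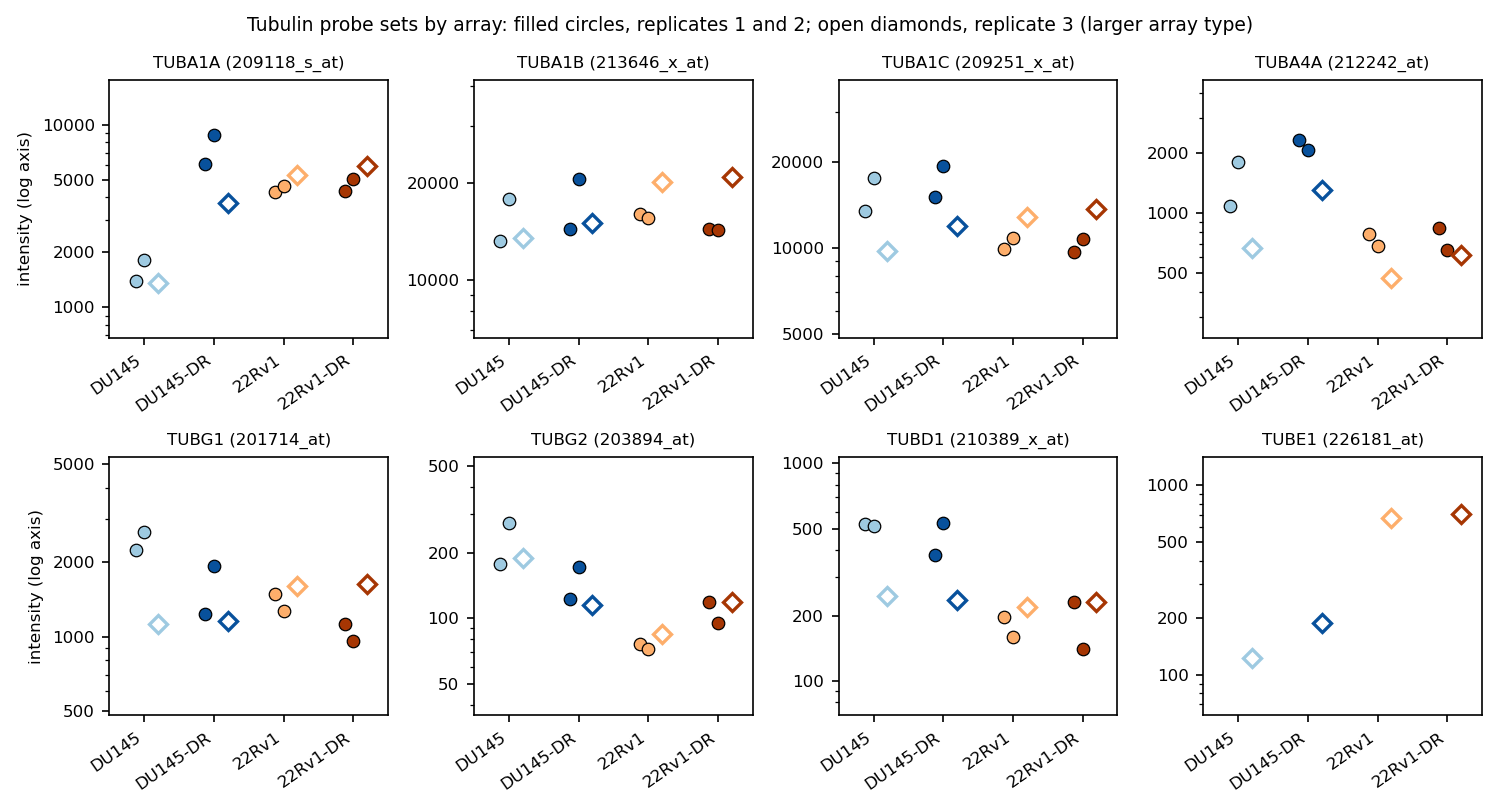
Intensity on a log axis (deposited scale, no unit) of 1 probe set per member gene in the 4 groups; filled circles are replicates 1 and 2 on the smaller array type and open diamonds replicate 3 on the larger, and TUBE1 has diamonds only. TUBA1A read 1361 to 1820.3 in DU145 and 3743 to 8780.0 in DU145-DR, while TUBA1B and TUBA1C read at like levels in the parental and resistant arrays.

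TUBA1B and TUBA1C, the alpha-tubulins that most dividing cells make in bulk, were bright in all 4 groups and passed the test in neither line. Their probe sets shared by both array types stood between the 99.0 and 99.9 percentiles of every array. Whether a rise could be read so near the top of the range was not tested. The TUBA1B probe set that represents the gene read 13216 and 17805 in DU145 and 14362 and 20595 in DU145-DR, with 13494 and 14972 on the larger arrays. In 22Rv1 it read 16047 and 15608 and in 22Rv1-DR 14362 and 14263, with 20171 and 20882 on the larger arrays. The DU145 groups overlapped, and the spread between DU145 replicates was wider than the gap between DU145 and DU145-DR. The change was 0.16 ± 0.24 in DU145 (95% interval -0.38 to 0.71, limma adjusted p = 0.840) and -0.14 ± 0.24 in 22Rv1 (95% interval -0.69 to 0.40, limma adjusted p = 1.00). The 5 TUBA1B probe sets gave changes of 0.14 to 0.20 in DU145 and -0.14 to -0.12 in 22Rv1. Their log2 values correlated at 0.932 to 0.999 over the 8 arrays, which share each array's scaling and, possibly, bound sequences. A further TUBA1B probe set on the larger type was dim, at 12.5 in DU145, 14.3 in DU145-DR, 14.2 in 22Rv1 and 13.6 in 22Rv1-DR.

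The first TUBA1C probe set read 13494 and 17682 in DU145, 15076 and 19484 in DU145-DR, 9947 and 10885 in 22Rv1, and 9675 and 10735 in 22Rv1-DR. On the larger arrays it read 9742, 11994, 12855 and 13682 in the same order of groups. The parental and resistant ranges overlapped in both lines on the smaller arrays. The change was 0.15 ± 0.22 in DU145 (95% interval -0.35 to 0.65, limma adjusted p = 0.847) and -0.03 ± 0.22 in 22Rv1 (95% interval -0.53 to 0.47). The other TUBA1C probe set gave 0.17 ± 0.20 and -0.07 ± 0.20. Both gave 0.30 on the third pair of DU145.

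TUBA4A, the alpha-tubulin that is made without the C-terminal tyrosine of the others, read higher in every DU145-DR array than in the DU145 arrays of its type, without passing the test. It read 1082 and 1808 in DU145 and 2320.2 and 2062 in DU145-DR, with 671 and 1305 on the larger arrays. The 2 smaller DU145 arrays differed from each other by more than the higher of them differed from the resistant arrays. The change was 0.64 ± 0.27 (95% interval 0.02 to 1.25, limma adjusted p = 0.206), and the pairs gave 1.09, 0.19 and 0.94. It passed where all 12 arrays were fitted with a block for each pair (0.74, limma adjusted p = 0.0266). In 22Rv1 the readings were 781 and 680.3 against 838 and 653 in 22Rv1-DR, a change of 0.02 ± 0.27 (95% interval -0.60 to 0.63). The larger arrays of that line gave 474 and 613.

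**Figure D2:**
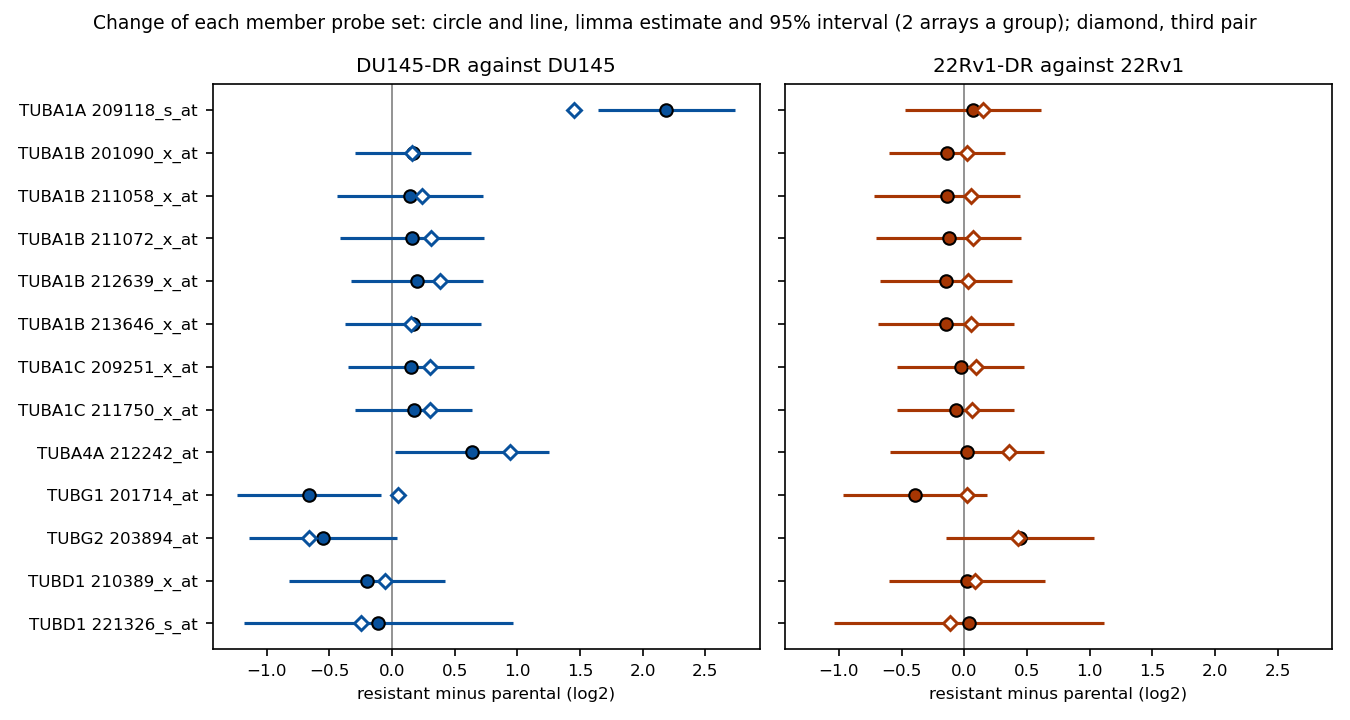
Change of each of the 13 member probe sets of the smaller array type (resistant minus parental, log2), with limma's estimate as a circle, its 95% interval as a line and the third pair as a diamond, for DU145 and for 22Rv1. TUBA1A in DU145, at 2.19, is the one point far from 0 and the one that passed the test.

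The genes on either side of TUBA1A on chromosome 12, chosen after its change had been seen, passed in neither line. Of the 8 nearest protein-coding genes on each side by RefSeq order, 12 of 16 were on the smaller array and 11 were tested, TUBA1B and TUBA1C being the immediate neighbours. By limma 0 were higher and 0 lower in DU145-DR (background 8.97% in either direction), and likewise 0 and 0 in 22Rv1-DR (background 4.16%). With 11 genes tested, counts of 0 are near those shares and tell little about the stretch. Their DU145 changes ran from -0.90 to 0.21 with a median of -0.05. The lowest was PRPH, the neuronal filament protein peripherin (limma adjusted p = 0.133). PRPH, LMBR1L and PRKAG1 passed as lower with the replicate block (limma adjusted p = 0.00424, 0.00829 and 0.0217). With that block 33.2% of all probe sets passed in DU145 in either direction. TUBA1A was the one tested gene of the stretch that passed as higher in DU145-DR.

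**Figure D3:**
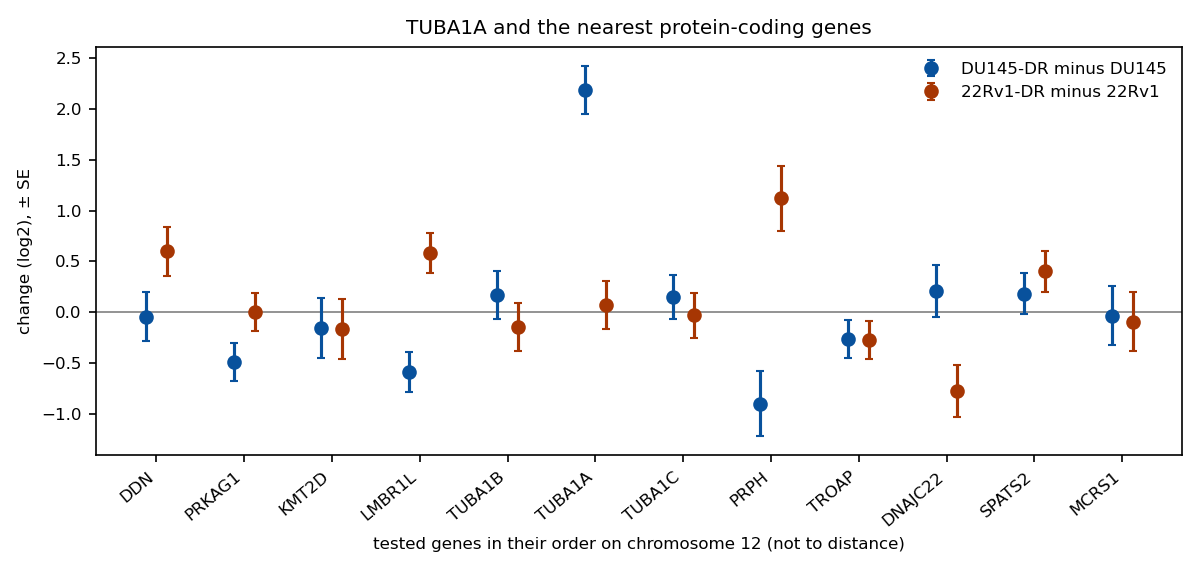
Change (log2, resistant minus parental, with SE bars) of TUBA1A and its tested neighbours in their order along chromosome 12, not to distance, for DU145 and 22Rv1. TUBA1A in DU145 stands at 2.19, while the 11 neighbours lie between -0.90 and 0.21 in that line.

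The genes whose pattern over the 8 arrays was most like that of TUBA1A, after the mean of each line was subtracted, were SPDL1 (r = 0.998) and MN1 (r = 0.997), out of 9725 genes compared. Both r values describe likeness over 8 arrays of which the DU145-DR pair sets the pattern. Both genes were picked for that likeness, so their changes and p-values on these arrays follow from the choice and test nothing further. Only the third pair lies outside it. SPDL1 encodes spindly, which brings the motor dynein to kinetochores, and MN1 encodes a regulator of transcription. SPDL1 rose by 2.06 ± 0.23 in DU145-DR (limma adjusted p = 0.00131), had a change of 0.04 in 22Rv1 and gave 2.42 on the third pair of DU145. MN1 rose by 1.28 ± 0.20 (limma adjusted p = 0.00758) and gave 0.38 on the third pair. MN1 no longer passed when replicate 1 of DU145 was dropped (adjusted p = 0.0525) and when the DU145 and DU145-DR arrays were fitted alone (0.0782).

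Both gamma-tubulin genes read lower in DU145-DR on the smaller arrays, and neither passed on the deposited scale with all 8 arrays and no block. TUBG1, the form that most cells depend on, read 2241 and 2665 in DU145 and 1235 and 1924 in DU145-DR. On the larger arrays it read 1121 and 1160.1, so the third pair did not repeat the gap. The change was -0.66 ± 0.25 (95% interval -1.23 to -0.09, limma adjusted p = 0.160), and the pairs gave -0.85, -0.47 and 0.05. With the replicate block it passed (adjusted p = 0.0120), as it did after quantile normalization (-0.72, adjusted p = 0.0335) and without DU145-DR replicate 2 (-0.98, adjusted p = 0.0333). Over all 12 arrays with a block for each pair it did not (adjusted p = 0.128). In 22Rv1 TUBG1 read 1489 and 1269 against 1128 and 962 in 22Rv1-DR, a change of -0.39 ± 0.25 (95% interval -0.97 to 0.18, limma adjusted p = 0.614), and 1607 against 1629 on the larger arrays.

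TUBG2, a close copy of TUBG1 best known from brain, read lower in DU145-DR and higher in 22Rv1-DR, on every pair of arrays. In DU145 it read 177 and 274, and in DU145-DR 123 and 172, with 190.0 and 115 on the larger arrays. In 22Rv1 it read 76.6 and 72.0, and in 22Rv1-DR 119 and 95.7, with 84.4 and 119 on the larger arrays. Parental and resistant values did not overlap in either line. The change was -0.55 ± 0.26 in DU145 (95% interval -1.14 to 0.04, limma adjusted p = 0.261) with pairs of -0.48, -0.62 and -0.66. In 22Rv1 it was 0.45 ± 0.26 (95% interval -0.14 to 1.03, limma adjusted p = 0.543) with pairs of 0.55, 0.34 and 0.43.

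With the replicate block TUBG2 passed in DU145 (adjusted p = 0.0126), in 22Rv1 (0.0346) and in the difference between the lines (1.00 ± 0.36 without the block, adjusted p = 0.169; 0.00743 with it). Over all 12 arrays with a block for each pair the changes were -0.59 (limma adjusted p = 0.00587) in DU145 and 0.44 (0.0369) in 22Rv1, and the difference between them was 1.03 (0.00478). The readings stood between the 39.5 and 61.9 percentiles of their arrays over the shared probe sets. That of 22Rv1 replicate 2 (72.0) stood just under the intensity of 74.0 below which a group was taken as dim.

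TUBD1, which encodes delta-tubulin, passed in neither line by either of its tested probe sets. The brighter one read 526 and 516 in DU145 and 380.0 and 534 in DU145-DR, with 247 and 237 on the larger arrays. In 22Rv1 it read 198 and 159.8 and in 22Rv1-DR 232 and 140.1, with 218 and 232 on the larger arrays. Parental and resistant arrays overlapped in both lines. The changes were -0.20 ± 0.27 in DU145 (limma adjusted p = 0.819) and 0.02 ± 0.27 in 22Rv1. The dimmer probe set gave -0.11 ± 0.47 in DU145 (95% interval -1.18 to 0.97) and 0.04 ± 0.47 in 22Rv1. Its 2 DU145 replicates read 87.4 and 236, and its DU145-DR replicates 82.7 and 211, so the replicates stood further apart than the groups. One more TUBD1 probe set, on the larger type only, read 174 in DU145, 179 in DU145-DR, 202 in 22Rv1 and 223 in 22Rv1-DR.

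TUBE1, which encodes epsilon-tubulin, was read by 1 sample a group, so it has no replicate check. Its brighter probe set read 123 in DU145, 189 in DU145-DR, 671 in 22Rv1 and 704 in 22Rv1-DR. The resistant reading was 1.47-fold the parental one in DU145 (0.56 on the log2 scale), and the difference was 0.07 in 22Rv1. Of the 20867 probe sets of the larger type that had 1 gene symbol and exceeded an intensity of 74.0 on at least 1 of its arrays, 21.9% differed by over 2-fold between DU145-DR and DU145, and TUBE1 did not. Between lines the reading was 4.95-fold higher in 22Rv1 than in DU145 and 3.52-fold higher in 22Rv1-DR than in DU145-DR, where 30.1% and 31% of the same 20867 probe sets differed by over 2-fold. The floor was alike in the larger arrays of all groups, with a 5th percentile of 10.9 to 11.0 over all their probe sets. The other TUBE1 probe set was dim, between 10.1 and 12.5 in all 4 groups.

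On the larger arrays the other members differed less between the parental lines than TUBE1 (2.31) and TUBA1A (1.96). As 22Rv1 minus DU145 in log2, TUBG2 stood at -1.04 and TUBA4A at -0.49. TUBG1 stood at 0.51, the 5 bright TUBA1B probe sets at 0.58 to 0.66, the TUBA1C ones at 0.40 and 0.44 and the TUBD1 ones between -0.17 and 0.20. In the resistant lines the same differences were 0.66 for TUBA1A, 0.05 for TUBG2 and -1.07 for TUBA4A. With 1 array a group none of these has a test.

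Genes that work with the members were then read from lists chosen by function. The gamma-tubulin ring complex and its recruiters (24 genes listed, 15 tested) had 0 higher and 2 lower in DU145-DR (background 8.97% in either direction) and 0 higher and 1 lower in 22Rv1-DR (background 4.16%). The median change was -0.27 in DU145 and -0.07 in 22Rv1, and 0.30 and -0.05 on the third pairs, so the sign differed in DU145. TUBGCP4, a structural protein of the ring, read 657 and 885 in DU145 and 237 and 319.6 in DU145-DR, with 284 and 144 on the larger arrays. It fell by 1.42 ± 0.22 on the log2 scale (limma adjusted p = 0.00717), and the third pair gave -0.91. That call was lost when the 4 arrays of the line were fitted alone (adjusted p = 0.0764). A second TUBGCP4 probe set, on the larger type only, gave -0.42. In 22Rv1 TUBGCP4 read 186 and 181 against 195 and 193, and the difference between the lines' changes was 1.49 (adjusted p = 0.0293).

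HAUS6, a subunit of the augmin complex that places gamma-tubulin rings along spindle microtubules, passed as lower on the smaller arrays and went the other way on the larger. It read 676 and 1136 in DU145 and 282 and 449 in DU145-DR, against 72.5 and 150.1 on the larger arrays. The change was -1.26 ± 0.29 (limma adjusted p = 0.0340), while the third pair gave 0.91 and its other probe sets 0.41 and -0.33. It no longer passed when replicate 2 of DU145 (adjusted p = 0.165) or replicate 1 of DU145-DR (0.103) was dropped, without either 22Rv1 array (0.0629) or either 22Rv1-DR array (0.0643), and over all 12 arrays with a block for each pair (-0.54, 0.364). It was also lost with the 4 arrays of the line alone (0.160), after the shift to 1 median (0.0574) and with no limit for dim probe sets (0.0504).

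AKAP9, a large scaffold protein that holds gamma-tubulin rings at the centrosome and Golgi, fell in 22Rv1-DR. It read 3350.1 and 3641 in 22Rv1 and 1105 and 1152 in 22Rv1-DR, with 5330.3 and 2957 on the larger arrays. All 22Rv1-DR values lay below all 22Rv1 values of the same array type. The change was -1.62 ± 0.18 (limma adjusted p = 0.00158), a second probe set gave -1.42 (adjusted p = 0.00378), and the third pair gave -0.85. In DU145 the change was -0.43 (adjusted p = 0.199; 0.0301 with the replicate block) with -1.29 on the third pair. The difference between the lines' changes was -1.18 (limma adjusted p = 0.0320). On the third pairs the fall was larger in DU145 than in 22Rv1, so the difference went the other way there. The second probe set fell by like amounts on the third pairs (-0.82 in DU145 and -0.79 in 22Rv1).

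With the replicate block 3 of the 15 ring complex genes passed as higher in DU145-DR and 6 as lower, where 33.2% of all probe sets passed in either direction, and the readings of those outside the 3 above were chosen after they were seen. The higher ones were TUBGCP2 (0.59, 0.79 on the third pair), TUBGCP3 (0.59, 0.73 on the third pair) and the augmin subunit HAUS3 (0.77, 0.72 on the third pair). The added lower ones were TUBGCP5 (-0.56, 0.43 on the third pair), CEP192 (-0.39, -0.40 on the third pair) and HAUS5 (-0.41, -0.14 on the third pair). TUBGCP2 and TUBGCP3 form the small gamma-tubulin complex that repeats around the ring, and TUBGCP4 and TUBGCP5 belong to the larger complex only.

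The other alpha-tubulins (6 listed, 3 tested) had 0 called in either line by limma (background 8.97% in DU145 and 4.16% in 22Rv1). At an unadjusted p under 0.05 there were 1 in DU145 (background 22.2%) and 0 in 22Rv1 (background 14.7%). The median change was 0.14 and -0.06. That 1 was TUBAL3, an alpha-tubulin-like gene. It and the genes named from the lists that follow were chosen after their values were seen. It read 55.3 and 45.3 in DU145 and 434 and 79.3 in DU145-DR, with 19.6 and 81.6 on the larger arrays. Every resistant value was above the parental ones of its type, and replicate 1 of DU145-DR stood far above replicate 2. The change was 1.65 ± 0.58 (limma adjusted p = 0.130; 0.0405 with the replicate block), and the third pair gave 1.46. In 22Rv1 it read 19.7 and 18.5 against 26.4 and 19.8, near the floor of those arrays. With the replicate block 33.2% of all probe sets passed in DU145 in either direction.

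Enzymes that modify tubulin (20 listed, 11 tested) had 0 called in either line by limma (background 8.97% in DU145 and 4.16% in 22Rv1). The median changes were -0.07 and -0.03. At an unadjusted p under 0.05 there were 0 in DU145 (background 22.2%) and 3 in 22Rv1 (background 14.7%). The 3 were TTLL7, which adds glutamate chains to tubulin (0.82, adjusted p = 0.0887; 0.54 on the third pair), the deacetylase SIRT2 (0.63, adjusted p = 0.130; 0.55 on the third pair) and VASH2, which removes the C-terminal tyrosine of alpha-tubulin (-0.66, adjusted p = 0.156; 0.07 on the third pair). All 3 passed with the replicate block (limma adjusted p = 0.00354, 0.00876 and 0.0170), where 19.8% of all probe sets passed. In DU145 the block added SIRT2 (0.30, -0.14 on the third pair) and TTLL7 (0.38, 0.39 on the third pair) as higher. It added TTLL5 (-0.41, -0.08 on the third pair) as lower, where 33.2% of all probe sets passed in either direction.

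Genes of centriole assembly and triplet microtubules (15 listed, 8 tested) had 0 called in either line by limma (background 8.97% in DU145 and 4.16% in 22Rv1). At an unadjusted p under 0.05 there were 0 in DU145 (background 22.2%) and 1 in 22Rv1 (background 14.7%). The medians were -0.02 in DU145 and -0.26 in 22Rv1, with 0.55 and -0.14 on the third pairs. The 1 was TEDC2, which acts with delta- and epsilon-tubulin in centrioles (-1.01 in 22Rv1, adjusted p = 0.101; 0.0197 with the replicate block; -0.19 on the third pair). In DU145 CEP152 passed with the block (-0.53, limma adjusted p = 0.0138), with the opposite sign on the third pair (0.89). Of all probe sets, 33.2% passed with the block in DU145 and 19.8% in 22Rv1.

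Tubulin folding genes are the CCT chaperonin, prefoldin and the tubulin cofactors (20 listed, 18 tested). By limma 0 were called in either line (background 8.97% in DU145 and 4.16% in 22Rv1). At an unadjusted p under 0.05 there were 1 in DU145 (background 22.2%) and 0 in 22Rv1 (background 14.7%). The medians were 0.14 and 0.09, with 0.43 and 0.18 on the third pairs. In DU145 the block added the chaperonin subunits CCT2 (0.37, 0.82 on the third pair) and CCT3 (0.32, 0.92 on the third pair) as higher. It added the small GTPase ARL2 (-0.63, -0.87 on the third pair) as lower, where 33.2% of all probe sets passed in either direction. For tubulin mRNA autoregulation (4 listed, 2 tested), SCAPER had changes of -0.0047 in DU145 and 0.26 in 22Rv1 and CNOT1 of -0.07 and 0.26. Neither passed in either line (0 called, 0 at an unadjusted p under 0.05, against the same backgrounds), and the third pair of SCAPER gave -0.71 and -0.88.

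**Figure D4:**
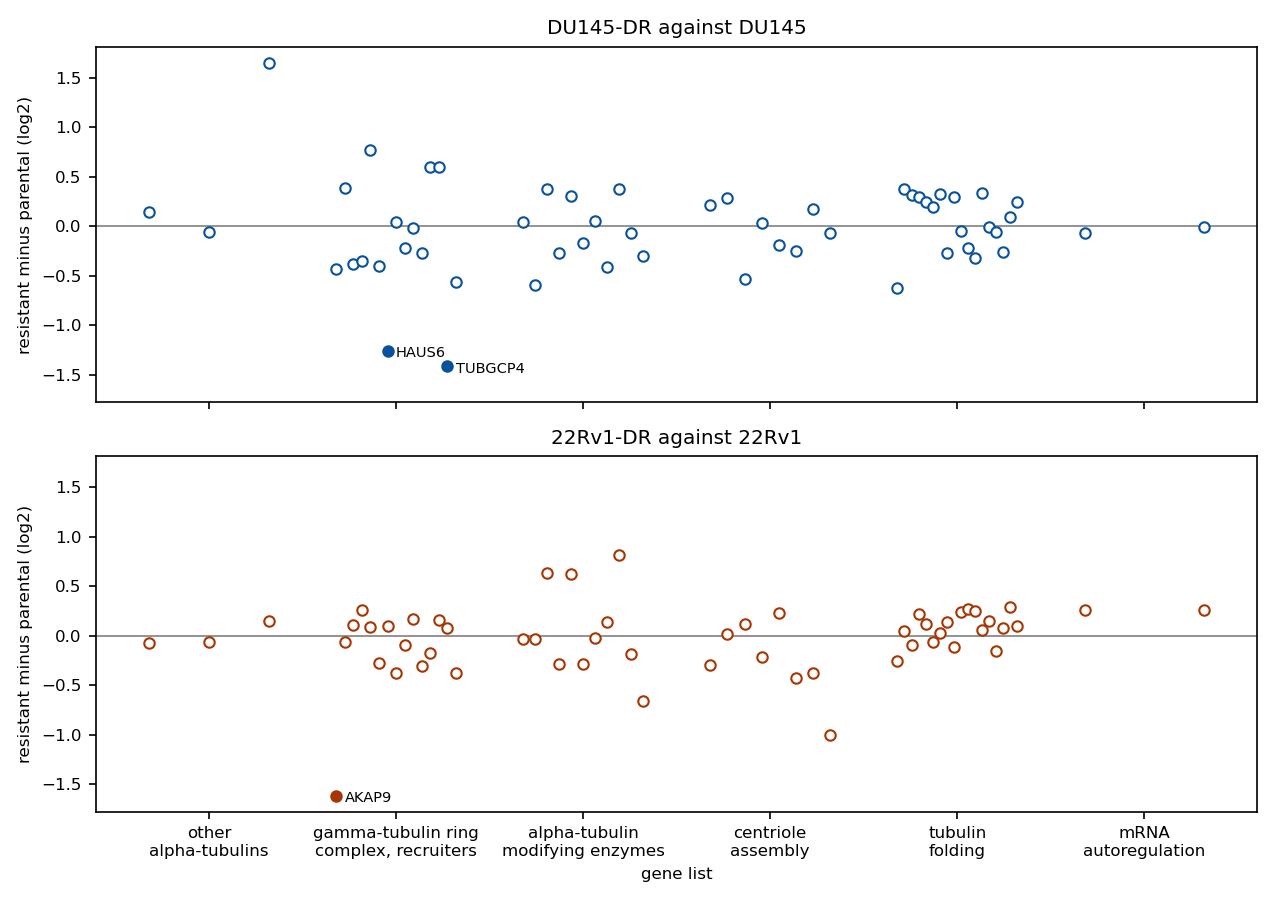
Change (log2, resistant minus parental) of each tested gene of the 6 lists in DU145 (upper panel) and 22Rv1 (lower panel); filled, named points passed limma's test and open points did not. TUBGCP4 and HAUS6 in DU145 and AKAP9 in 22Rv1 are the filled points, at -1.42, -1.26 and -1.62.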

How the data were processed

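Total RNA of 12 samples in 4 groups was read on Affymetrix arrays, and the authors deposited linear intensity values per probe set (7.52 to 31216 on the smaller array type, 6.73 to 30786 on the larger). MAS5 and RMA are named per the submitters' processing notes, with roles and versions not given in the sources used here. Precision is limited by the number of arrays.

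Groups and replicate numbers came from sample titles. Probe sets with 1 gene symbol were used (19064 and 41091), while 1043 and 1801 with several symbols and 2108 and 11721 without one were not, and symbols were updated by gene identifier (19052 and 41037 matched). Values were taken as log2 of intensity plus 16. A probe set was tested if its mean in at least 1 group exceeded the 40th percentile over the table (log2 6.49, intensity 74.0), leaving 14831 of 9801 genes; all 13 member probe sets remained. The model for the 8 smaller arrays was limma's (version 3.58.1, R 4.3.3, lmFit, then eBayes), with 1 term a group. It had 4 residual and 4.38 prior degrees of freedom, with Benjamini-Hochberg adjustment over all probe sets tested. The fit was checked on simulated data in which arrays were drawn independently. That check does not cover the pairing of replicates described below. No scan batch was known, and the tables were not joined except in a named alternative.

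A gene outside the members was represented by its brightest probe set, those ending in _x_at only if there was no other. The rule for named genes took all members, up to 4 changed genes a list and line, and the 2 genes most like each changed member. Others named (neighbours of TUBA1A, list genes that passed only with a block or did not pass) were chosen outside it, after their values were seen. Members and lists were chosen with earlier results of these data known. The replicate numbers pair parental and resistant arrays: deviations of replicate 1 from its group mean correlated at 0.716 in DU145 and 0.792 in 22Rv1, against 0.111 and 0.0787 across lines, over probe sets. Pairing rests on these values, over 4 pairs (2 a line, whose deviations mirror each other), and not on the labels. Alternatives were other scalings, pseudocounts, limits for dim probe sets, probe-set rules and blocks, and each array left out. Promoters came from RefSeq, with an entry for all 8 members.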

Additional observations from a re-analysis of the deposited data

Results flagged for a closer look

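TUBA1A differed between the lines in its change with docetaxel resistance: the 22Rv1 change minus the DU145 change was -2.12 (SE 0.34, limma adjusted p = 0.00882), from 2.19 in DU145 and 0.07 in 22Rv1. The third pairs gave 1.45 and 0.15. No explanation was tested.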

How the results depend on the processing

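In DU145, 1330 probe sets passed. The count was 280 with the 4 arrays of the line alone, 4919 with the replicate block, 4175 over 12 arrays with a block for each pair, and 533 (without DU145 replicate 1) to 1807 (without DU145-DR replicate 2) with 1 array left out. In 22Rv1, 617 passed, against 1342, 2937 and 1177 in the same settings and 256 (without 22Rv1 replicate 1) to 1017 with 1 array left out. For the difference between lines, 970 passed, against 4307 with the replicate block, 2741 over 12 arrays and 347 to 1447 with 1 array left out. Between parental lines 12395 passed, against 6307 after quantile normalization, 5470 after the shift to 1 median and 8106 with 1 probe set a gene. Among members, DU145 calls were 2 after quantile normalization, 3 with the replicate block, 3 over 12 arrays and 1 to 2 with 1 array left out. In 22Rv1 they were 1 with the replicate block and 1 over 12 arrays. For the difference they were 2 and 2, and 0 to 1 with 1 array left out. The replicate block changed no member call but those of TUBG1 and TUBG2. Between parental lines they were 3 to 7 with 1 array left out.

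After quantile normalization the parental line difference changed sign for 2 of the TUBA1B probe sets (0.48 and 0.47). These and the other 3, none called as deposited, then passed as higher. TUBA4A (0.35), TUBG1 (0.38) and TUBG2 (0.077), called lower as deposited, changed sign and no longer passed. The other TUBA1C probe set (0.23) and the dimmer TUBD1 one (0.70) changed sign and passed in neither setting. After the shift to 1 median the same TUBA1B probe sets (1.38 and 1.38) and both TUBA1C ones (0.87 and 1.06) changed sign and passed as higher. TUBA4A (0.51), TUBG1 (0.62), TUBG2 (0.046) and the dimmer TUBD1 probe set (0.69) changed sign without passing. The cause was not tested. Of the member values in DU145, 213 kept their direction and side of the threshold, 6 passed only in the alternative and 13 not called changed sign; in 22Rv1 these were 212, 2 and 18. The fit of 1 line alone was not run for the difference, nor the block between lines. Signal limits TUBG2 in 22Rv1 and the dimmer TUBD1 probe set.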
